A study of Homo sapiens with 8 samples.

Results

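The transcription factor p53 is kept scarce in unstressed cells by its own target MDM2, a ubiquitin ligase, and by the related protein MDM4. When DNA damage, nutrient shortage or other stress releases it from them, p53 raises the transcription of genes that halt the cell cycle, prepare cell death, repair DNA, adjust metabolism and, through MDM2 itself, switch the response off. Liver cells respond to genotoxic drugs in this way, and HepG2, a human line from a hepatocellular carcinoma that is widely used in toxicity screens, is known to carry p53 without a mutation. The 31 p53 targets described here were taken by name from general knowledge of the pathway and sorted into 5 roles. Both choices were made with earlier results of these data known. Of the 31, 30 had at least 10 counts in at least 2 libraries, of 13943 genes that did so among the 38032 in the files. GADD45G was counted 0 or 1 times in each library and was not tested.

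HepG2 cells came from 1 pool and were grown for 8 days either on flat culture plastic (2D-primed, 4 libraries) or on a porous polystyrene scaffold that keeps the cells layered on its surface (3D-primed, 4 libraries). Both groups were the unmodified line, labelled wild type, in the same serum-containing medium, and the cells of both were released with trypsin before polyadenylated RNA was sequenced. The methods give different seeding densities for the surfaces, so that density and surface cannot be told apart. The labels do not say that the libraries of a group came from separate passages, so p-values measure the spread between these libraries, which may be technical. Libraries held 21599630 to 27844077 counts, and the depths of the groups overlapped (two-sided exact permutation test, p = 0.26, n = 4 and 4). All 10 hepatocyte markers on the list were counted, at a sum of 70807 to 77014 CPM after 2D priming and 99919 to 112219 CPM after 3D priming. Of these, 8 were higher and 2 lower in 3D-primed cells (80% and 20%, against 32.4% and 31.6% of all genes). Of the 12 markers of fibroblasts, endothelium and leukocytes, 7 were tested. They summed to 91.6 to 93.9 CPM in 2D-primed libraries and 52.4 to 64.7 CPM in 3D-primed libraries, mostly CD68. Of the 7, 3 were higher and 3 lower in 3D-primed cells (42.9% each, against 32.4% and 31.6% of all genes). The leukocyte marker PTPRC was counted 0 to 2 times per library. The mitochondrial share of counts was 1.40 to 1.81% after 2D priming, against 2.47 to 2.98% after 3D priming. The part of these markers and of the mitochondrial share in the results was not tested. The counts hold no sequence, so the p53 genotype itself was not checked, and neither p53 protein nor its activity was measured.

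Levels are counts scaled to library size by TMM (CPM). In bulk RNA, fewer cells that express a gene and less of its RNA per cell cannot be told apart. The text gives changes as log2 ratios, or log2 fold changes, of 3D-primed over 2D-primed cells with their standard error (SE). A gene is called changed where the quasi-likelihood test of edgeR, with Benjamini-Hochberg adjustment over all 13943 genes, gave an adjusted p below 0.05, and every adjusted p given is from that test unless another is named. Of the 30 targets tested, 22 were called changed (73.3%), against 63.9% of all genes. By direction, 16 targets were lower in 3D-primed cells (53.3%, against 31.6% of all genes) and 6 were higher (20%, against 32.4%). The median log2 fold change of the targets was -0.21, beside 0.01 for all genes, and the median size of a change was 0.38, beside 0.34. The 4 libraries of one group lay wholly apart from the 4 of the other in 21 of the 30 targets (70%, against 59.8% of all genes). Called changes of at least 2-fold were found in 4 of the 30 targets, CDKN1A, GADD45B, PLK2 and GDF15, against 1654 of all 13943 genes (11.9%). All 4 were lower in 3D-primed cells, as were 977 of the 1654. Called changes of at least 0.58 on the log2 scale were found in 10 of the 30 targets, against 3596 of all 13943 genes (25.8%). These shares describe targets that were chosen with earlier results of these data known. They were not tested against the rest of the genome.

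**Figure D1:**
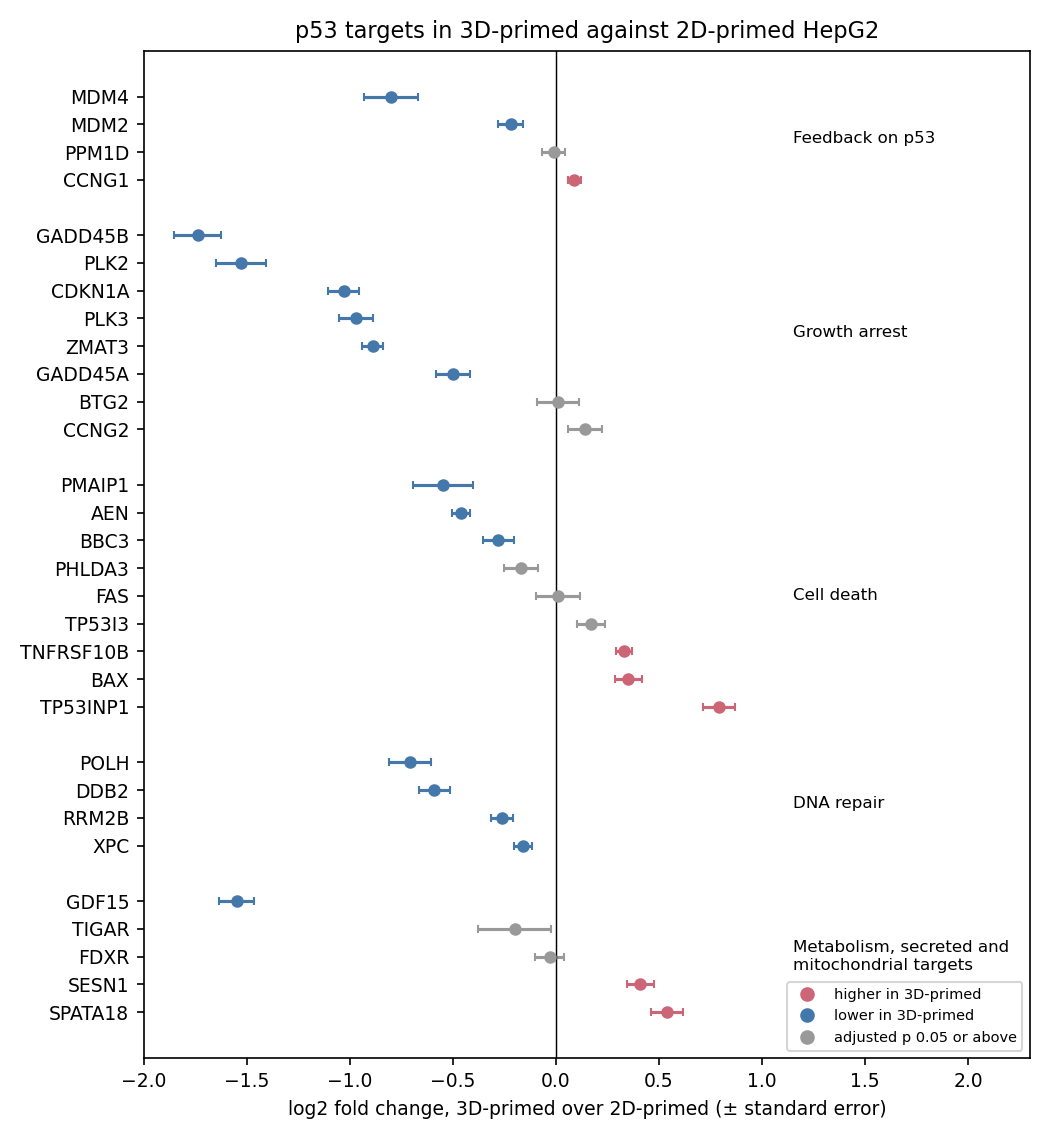
Log2 fold change of the 30 tested p53 targets, 3D-primed over 2D-primed, with bars of 1 standard error, grouped by role; colour shows the call. The growth arrest and DNA repair groups hold 10 called genes, all of them lower in 3D-primed cells, whereas the cell death group holds 3 called genes on each side of 0.

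The sequence that p53 binds is a pair of half-sites of 10 bases, each with the core CNNG, joined directly or with a short spacer. The p53 response element consensus was searched within 2500 bases on either side of the transcript start of 25 targets that RefSeq's promoter table (GRCh38.p14) lists, on the sequence of GRCh38. The consensus reads the same on both strands, so 1 pass covers both. A pair without a spacer and with at most 2 mismatches in 20 bases lay near 18 of the 25 targets, against 11.3% of the 12693 tested genes that code for proteins. It was found for 12 of the 14 searched targets that were lower in 3D-primed cells, 3 of the 4 that were higher and 3 of the 7 that were not called. With a spacer of 0 to 10 bases allowed, the groups differed less. A pair then lay near 13 of the 14, 4 of the 4 and 6 of the 7, against 69.9% of the coding genes tested. A match describes letters in this window, many p53 sites lie farther away, and genes known for such sites were put on the list partly for that reason. GADD45A, PHLDA3, RRM2B, TNFRSF10B and TP53INP1 were not searched. The sites below belong to 7 targets that were lower in 3D-primed cells, MDM2 and CDKN1A among them, and, for comparison, to CCNG1 and BAX, which were higher, and to TIGAR, which was not called. They are written 5′ to 3′ on the gene's strand, with the core of each half-site in capitals.
PLK2: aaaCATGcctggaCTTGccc
ZMAT3: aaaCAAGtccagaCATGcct
CDKN1A: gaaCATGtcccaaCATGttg
GDF15: catCTTGcccagaCTTGtct
MDM2: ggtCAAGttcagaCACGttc
DDB2: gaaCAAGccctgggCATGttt
AEN: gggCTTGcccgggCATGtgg
CCNG1: gcaCAAGcccaggCTAGtcc
BAX: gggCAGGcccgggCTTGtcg
TIGAR: agaCATGtccacagaCTTGtct

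The pair of PLK2 (chr5:58462274-58462293, minus strand, at position -2198 from the canonical transcript's start) and that of ZMAT3 (chr3:179070188-179070207, minus strand, in intron 1) had 0 mismatches, which 0.063% of the coding genes tested also had. The CDKN1A pair lay at position -2256 (chr6:36676449-36676468, plus strand) and the GDF15 pair at position -840 (chr19:18385308-18385327, plus strand), each with 2 mismatches. The MDM2 pair, also with 2 mismatches, was in intron 1 (chr12:68808923-68808942, plus strand), and the AEN pair, again with 2, lay at position -24 (chr15:88621306-88621325, plus strand). DDB2 had a pair with 0 mismatches and a spacer of 1 base in its untranslated first exon (chr11:47214979-47214999, plus strand). In CCNG1 (chr5:163437926-163437945) and BAX (chr19:48955213-48955232), both higher in 3D-primed cells and on the plus strand, the pairs lay in intron 1 with 1 and 2 mismatches. TIGAR, which was not called, had 0 mismatches around a spacer of 2 bases (chr12:4321615-4321636, plus strand). With a spacer of 0 to 10 bases allowed, 0.441% of the coding genes tested had a pair with 0 mismatches. Targets with a site of 0 mismatches thus included genes that fell and a gene that was not called.

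**Figure D2:**
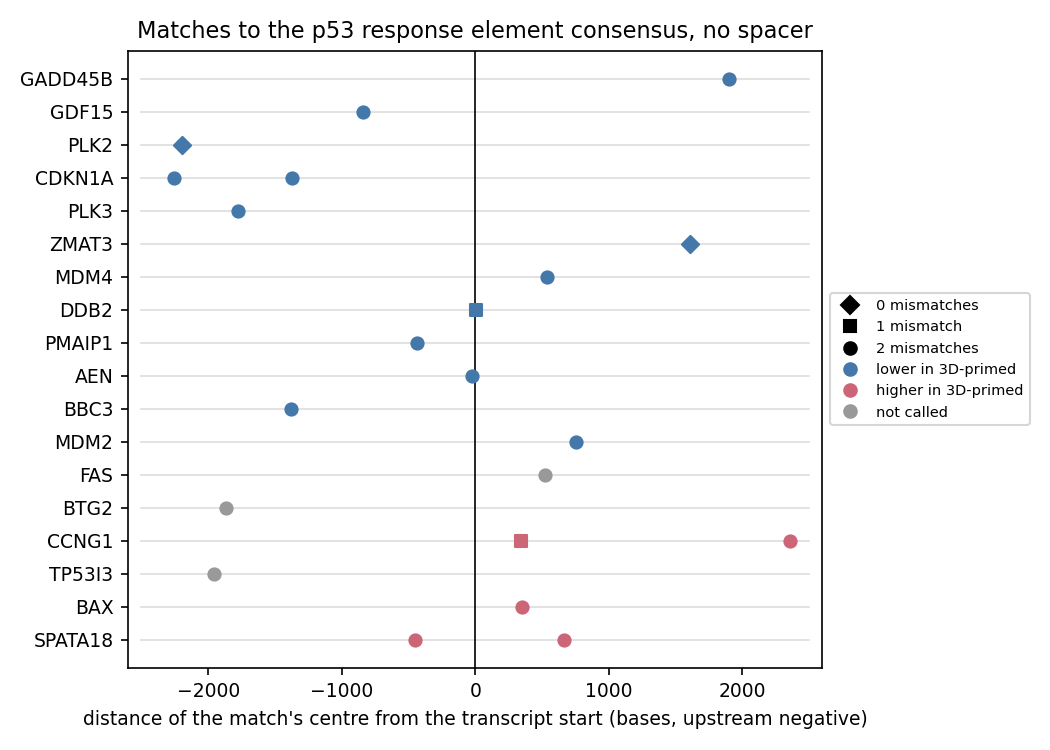
Position of each match to the p53 response element consensus without a spacer, as the distance of its centre from the transcript start in bases, for the 18 targets that have one; targets are ordered by log2 fold change, colour shows the call and the marker the number of mismatches. The matches of the 12 targets that were lower in 3D-primed cells lay from position -2256 to position 1904.

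Of the 4 targets given the feedback role, MDM2 and MDM4 were lower in 3D-primed cells (50%, against 31.6% of all genes). CCNG1 was higher (25%, against 32.4%) and PPM1D was not called. Other regulators of p53 are on a further list, on which 9 genes were higher and 5 lower. RCHY1 (log2 ratio 0.40, adjusted p = 0.0035) and COP1 (0.14, adjusted p = 0.037) were among the higher ones. MDM2 (ENSG00000135679, chromosome 12, 68808177 to 68845544 of GRCh38), the ligase that marks p53 for destruction, was counted at 142, 119.5, 135 and 124 CPM in the 2D-primed libraries. In the 3D-primed libraries it was at 105, 112, 118 and 112 CPM. The highest 3D-primed library came within 2 CPM of the lowest 2D-primed one, and the log2 fold change was -0.22 (SE 0.0593, adjusted p = 0.0075). A tested gene, ENSG00000256664, shares exon sequence with MDM2 on the same strand, so reads may have been divided between them. MDM4 (ENSG00000198625, chromosome 1, 204516379 to 204558120), which binds p53 and blocks its activation domain without degrading it, was at 23.8, 18.6, 19.1 and 19.3 CPM after 2D priming and 10.2, 9.79, 14.9 and 11.4 CPM after 3D priming. The groups did not overlap, although 2D-primed replicate 1 and 3D-primed replicate 3 stood above the others of their groups. The log2 fold change of MDM4 was -0.80 (SE 0.133, adjusted p = 3.9e-04), and it ran from -0.95 to -0.71 over all alternatives. Per kilobase of the canonical transcript, the level of MDM4 was 2.01 CPM in 2D-primed cells, against 17.4 CPM for MDM2. PPM1D, a phosphatase that removes activating phosphates from p53 and from its kinases, had 33.1 ± 1.57 and 32.7 ± 2.10 CPM (SD, n = 4; adjusted p = 0.83), and the sign of its difference of -0.01 turned to 0.01 with total counts and 0.04 with upper-quartile scaling. CCNG1, which encodes cyclin G1 and recruits a phosphatase that acts on MDM2, had the smallest called change, from 225 ± 3.97 to 240.2 ± 4.14 CPM (log2 ratio 0.09, adjusted p = 0.029), and fell short of the threshold in 6 of 17 alternatives, with adjusted p up to 0.089.

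Genes that arrest the cell cycle moved most. Of the 8 tested, 6 were lower in 3D-primed cells (75%, against 31.6% of all genes) and none was higher, with a median log2 fold change of -0.93 over the 8. The summed level of the 8 was 331 to 377 CPM after 2D priming and 185 to 213 CPM after 3D priming. BTG2, an antiproliferative gene, and CCNG2, which encodes cyclin G2, did not pass the test.

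CDKN1A (ENSG00000124762, chromosome 6, 36676460 to 36687337) encodes p21, the inhibitor of cyclin-dependent kinases through which p53 stops cells in G1. Its level was 115.5, 94.8, 114 and 93.8 CPM in the 2D-primed libraries and 51.0, 49.8, 50.4 and 53.7 CPM in the 3D-primed libraries. The 3D-primed libraries were nearly equal, and each lay far below the lowest 2D-primed one. The change was -1.03 on the log2 scale (SE 0.0745, adjusted p = 1.2e-06), or 2.04-fold, and over all alternatives it ran from -1.08 to -0.98. ZMAT3 (ENSG00000172667, chromosome 3, 178960121 to 179072215), an RNA-binding protein that acts downstream of p53 on splicing and RNA stability, was at 62.7, 62.5, 60.3 and 59.3 CPM after 2D priming and 30.4, 32.3, 36.0 and 33.7 CPM after 3D priming. The groups lay far apart, and its log2 fold change was -0.89 (SE 0.0520, adjusted p = 3.0e-07).

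GADD45B (ENSG00000099860, chromosome 19, 2476122 to 2478259) had the largest change of all 30 targets. It belongs to a family of small stress-induced proteins that bind the kinase MTK1 and PCNA. Its level was 33.0, 30.95, 39.5 and 30.4 CPM in the 2D-primed libraries and 9.62, 9.74, 12.0 and 8.58 CPM in the 3D-primed libraries. The highest 3D-primed value was below the lowest 2D-primed value by more than the spread in either group. The log2 fold change was -1.74 (SE 0.113, adjusted p = 5.7e-07), or 3.35-fold. Its paralog GADD45A fell less, from 64.9 ± 5.07 to 46.1 ± 5.33 CPM (SD, n = 4; log2 ratio -0.50, adjusted p = 4.4e-04). Per kilobase, GADD45A was the more abundant of the pair in both groups, at 48.0 and 34.1 CPM against 24.4 and 7.28 CPM for GADD45B.

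The polo-like kinases PLK2 and PLK3, which act in centriole duplication and in stress checkpoints, fell together. PLK2 (ENSG00000145632, chromosome 5, 58453982 to 58460139) was at 33.3, 25.6, 34.5 and 26.5 CPM after 2D priming and 8.83, 9.74, 11.9 and 10.96 CPM after 3D priming, a log2 fold change of -1.53 (SE 0.122, adjusted p = 2.3e-06). PLK3 (ENSG00000173846, chromosome 1, 44800377 to 44805990) was at 17.2, 19.9, 20.3 and 19.4 CPM after 2D priming and 8.60, 9.56, 10.8 and 10.2 CPM after 3D priming (log2 fold change -0.97, SE 0.0817, adjusted p = 3.3e-06). In both genes the groups were separate, and in PLK2 the 2D-primed libraries split into a higher pair, replicates 1 and 3, and a lower pair. The same pair of libraries was also the higher one for CDKN1A.

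GADD45B, PLK2 and PLK3 are also known as genes that growth factors and stress switch on within minutes to hours. A list of 16 immediate early genes was therefore read beside them. Of the 14 tested, 8 were lower in 3D-primed cells (57.1%, against 31.6% of all genes) and 3 were higher (21.4%, against 32.4%), with a median log2 fold change of -1.26. The 4 with the smallest p were ZFP36 (-1.64), NR4A1 (-1.78), DUSP1 (-1.63) and KLF6 (-1.40), with adjusted p from 6.8e-08 to 4.0e-06. The 3 that were higher were EGR1 (1.66), IER2 (0.87) and JUNB (0.31), so that the list did not move as 1 block. Its summed level was 1067 to 1239 CPM after 2D priming and 700 to 958 CPM after 3D priming. The part of this shift in the changes of the p53 targets was not tested.

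**Figure D3:**
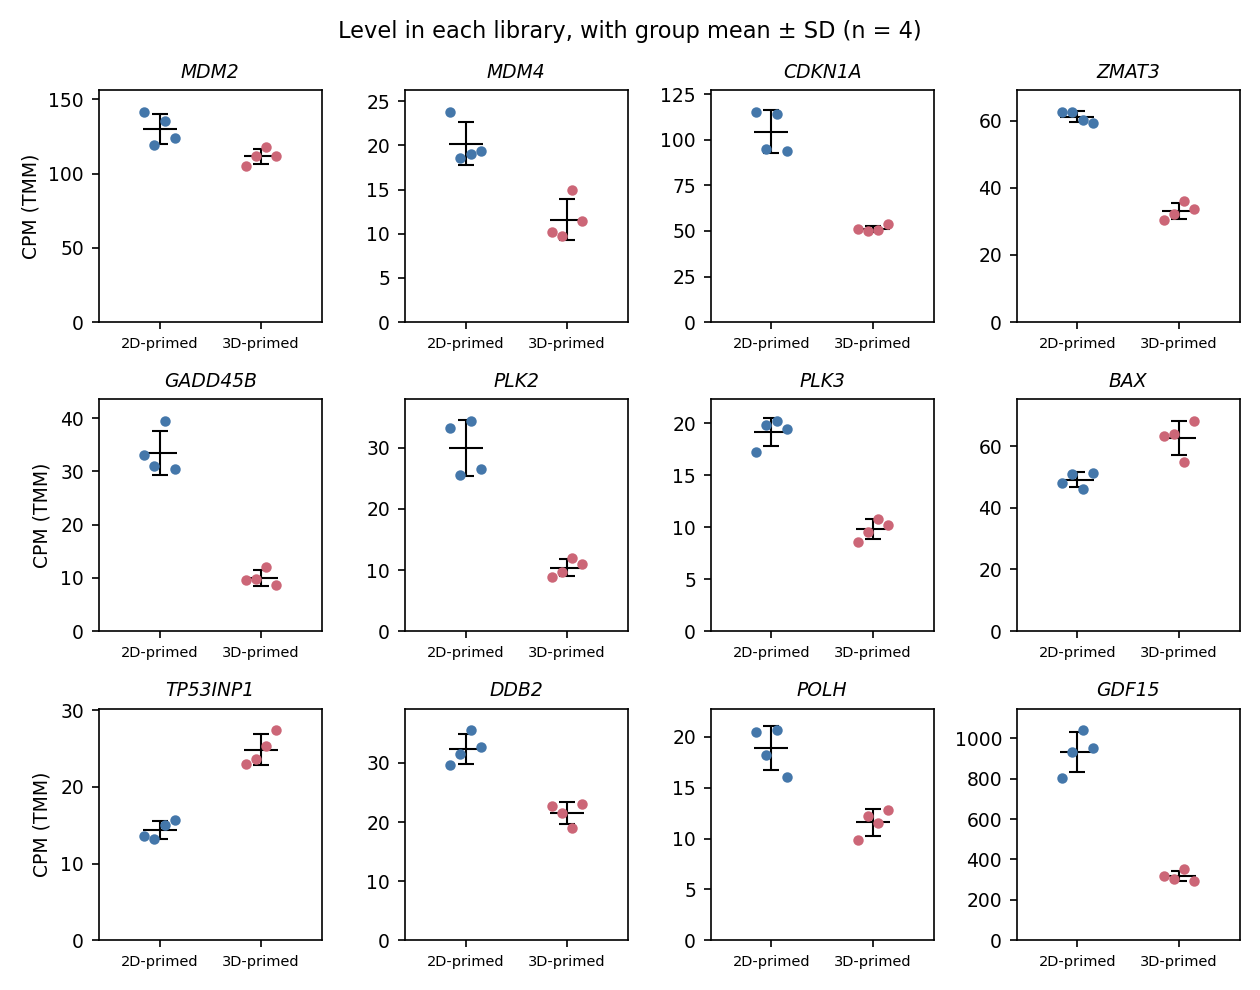
Level in CPM (linear axes from 0) of 12 p53 targets in each library, with group mean and SD as black bars (n = 4 each). The groups are separate in all 12 panels; MDM2 shows the narrowest gap and GADD45B, PLK2 and GDF15 the widest relative to their level.

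Targets that promote cell death moved in both directions at shares near those of all genes. Of the 9 tested, 33.3% were higher and 33.3% lower, against 32.4% and 31.6% of all genes: 3 were higher in 3D-primed cells (TP53INP1, BAX and TNFRSF10B), 3 were lower (AEN, PMAIP1 and BBC3) and 3 did not pass the test (FAS, TP53I3 and PHLDA3), and the median log2 fold change was 0.01. TP53INP1 (ENSG00000164938, chromosome 8, 94925972 to 94949378), a nuclear cofactor that favours the death-promoting form of p53 and also acts in autophagy, rose most of all targets. Its level was 13.6, 13.2, 15.1 and 15.7 CPM in the 2D-primed libraries and 22.9, 23.6, 25.4 and 27.5 CPM in the 3D-primed libraries. The groups did not meet, and the log2 fold change was 0.79 (SE 0.0771, adjusted p = 9.1e-06). NDUFAF6 overlaps it on the opposite strand, and the sources do not state whether counting used the strand, so the value is uncertain, as are those of POLH (GTPBP2), TNFRSF10B (RHOBTB2), TP53I3 (FAM228B) and FAS (ACTA2), each with a tested antisense gene over an exon; FAS also overlaps STAMBPL1 on its own strand.

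BAX, which permeabilises the outer mitochondrial membrane, rose, with 49.1 ± 2.44 CPM after 2D priming and 62.6 ± 5.57 CPM after 3D priming (SD, n = 4; log2 ratio 0.35, adjusted p = 9.0e-04). Of the BH3-only proteins that set BAX free, the list of targets held BBC3 and PMAIP1, and both were lower. BBC3, which encodes PUMA, went from 21.3 ± 1.86 to 17.6 ± 1.32 CPM (log2 ratio -0.28, adjusted p = 0.0083), and the groups overlapped through 3D-primed replicate 4 at 19.5 CPM. PMAIP1, which encodes NOXA, was scarce, with 37 to 59 counts per library, and went from 2.38 ± 0.183 to 1.62 ± 0.133 CPM (log2 ratio -0.55, adjusted p = 0.0068). Thus BAX lay on one side of 0, and BBC3 and PMAIP1 on the other. AEN, a nuclease that digests DNA and RNA in dying cells, fell from 97.1 ± 2.74 to 70.8 ± 3.19 CPM (log2 ratio -0.46, adjusted p = 6.1e-06).

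Of the death receptors, TNFRSF10B, which encodes the TRAIL receptor DR5, was at 188 ± 5.05 CPM after 2D priming and 236 ± 7.34 CPM after 3D priming (SD, n = 4; log2 ratio 0.33, adjusted p = 2.9e-05). FAS, the receptor of FAS ligand, had 7.13 ± 0.486 and 7.18 ± 0.960 CPM (adjusted p = 0.96), and the sign of its difference changed with the setting. TP53I3, a quinone oxidoreductase linked to oxidative stress in apoptosis, had 15.1 ± 0.756 and 16.9 ± 1.30 CPM (log2 ratio 0.17, adjusted p = 0.053), with adjusted p from 0.014 to 0.15 over the alternatives. PHLDA3, which competes with AKT for membrane lipids, had 31.4 ± 2.55 and 27.9 ± 2.84 CPM (log2 ratio -0.17, adjusted p = 0.085).

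All 4 targets that were given the DNA repair role here were lower in 3D-primed cells (against 31.6% of all genes). Their groups did not overlap (against 59.8% of all genes). Genes on the list of other p53 targets were not sorted by role. That list held genes that moved either way, such as PCNA (log2 ratio 0.30, adjusted p = 0.0018) and ASCC3 (-0.25, adjusted p = 3.7e-04). The uniform fall thus describes only these 4 targets, whose role was given with earlier results known. DDB2 (ENSG00000134574, chromosome 11, 47214465 to 47239217), the damage sensor that starts nucleotide excision repair after ultraviolet light, was at 29.6, 31.5, 35.7 and 32.7 CPM after 2D priming and 22.8, 21.5, 19.0 and 23.03 CPM after 3D priming. Its log2 fold change was -0.59 (SE 0.0747, adjusted p = 6.0e-05). POLH (ENSG00000170734, chromosome 6, 43576185 to 43620523), the polymerase that copies past ultraviolet lesions, was at 20.5, 18.2, 20.7 and 16.1 CPM after 2D priming and 9.81, 12.2, 11.5 and 12.8 CPM after 3D priming, a log2 fold change of -0.71 (SE 0.102, adjusted p = 1.4e-04). Both fell by clear margins, although the value of POLH is uncertain because the antisense gene GTPBP2 overlaps an exon. The remaining repair targets changed less. RRM2B, the p53-induced ribonucleotide reductase subunit, went from 37.5 ± 2.85 to 31.4 ± 0.0515 CPM (log2 ratio -0.26, adjusted p = 0.0018), and its 3D-primed libraries differed by about 0.1 CPM, from 31.4 to 31.5. XPC, which recognises bulky DNA lesions, changed by -0.16 (adjusted p = 0.008).

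Targets with roles in metabolism, secretion and mitochondria went in both directions. GDF15 (ENSG00000130513, chromosome 19, 18374731 to 18389176) encodes a secreted stress hormone that curbs appetite, and it was the most abundant target per kilobase of transcript, at 777 CPM after 2D priming and 265 CPM after 3D priming. Its level was 803, 931, 1044 and 954 CPM in the 2D-primed libraries and 319, 303, 355 and 294 CPM in the 3D-primed libraries. The change was -1.55 on the log2 scale (SE 0.0837, adjusted p = 1.8e-07), or 2.94-fold, and the highest 3D-primed library was far below the lowest 2D-primed one. SESN1, which encodes sestrin 1, a sensor protein that restrains mTORC1, was higher in 3D-primed cells, from 25.2 ± 1.61 to 33.4 ± 2.51 CPM (SD, n = 4; log2 ratio 0.41, adjusted p = 3.4e-04). SPATA18, which acts in the clearance of damaged mitochondria, rose from 6.95 ± 0.558 to 10.1 ± 0.463 CPM (log2 ratio 0.54, adjusted p = 1.5e-04). TIGAR, which lowers fructose-2,6-bisphosphate, had 7.22 ± 1.72 and 6.29 ± 1.06 CPM (adjusted p = 0.34), and FDXR, the ferredoxin reductase of mitochondria, had 37.6 ± 1.31 and 36.7 ± 3.82 CPM (adjusted p = 0.69). TIGAR, like MDM2, shares exon sequence with another tested gene on the same strand.

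GDF15 and TNFRSF10B are also known targets of the ATF4 branch of the stress response, which answers to amino acid shortage. Of 20 ATF4 targets, all 20 were called (against 63.9% of all genes), 15 of them higher and 5 lower in 3D-primed cells (75% and 25%, against 32.4% and 31.6%), with a median log2 fold change of 0.98. ASNS rose from 14.1 to 132 CPM (log2 fold change 3.22), and PSAT1 (2.37), SHMT2 (1.29) and MTHFD2 (1.56) rose as well, with adjusted p from 1.8e-10 to 4.7e-09. The 5 that were lower were SLC7A5 (-0.29), DDIT3 (-0.33), STC2 (-0.57), DDIT4 (-0.66) and VLDLR (-1.04), so that the list did not move as 1 block. Beside this list, TNFRSF10B rose and GDF15 fell. The part of either list in the values of these targets was not tested.

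**Figure D4:**
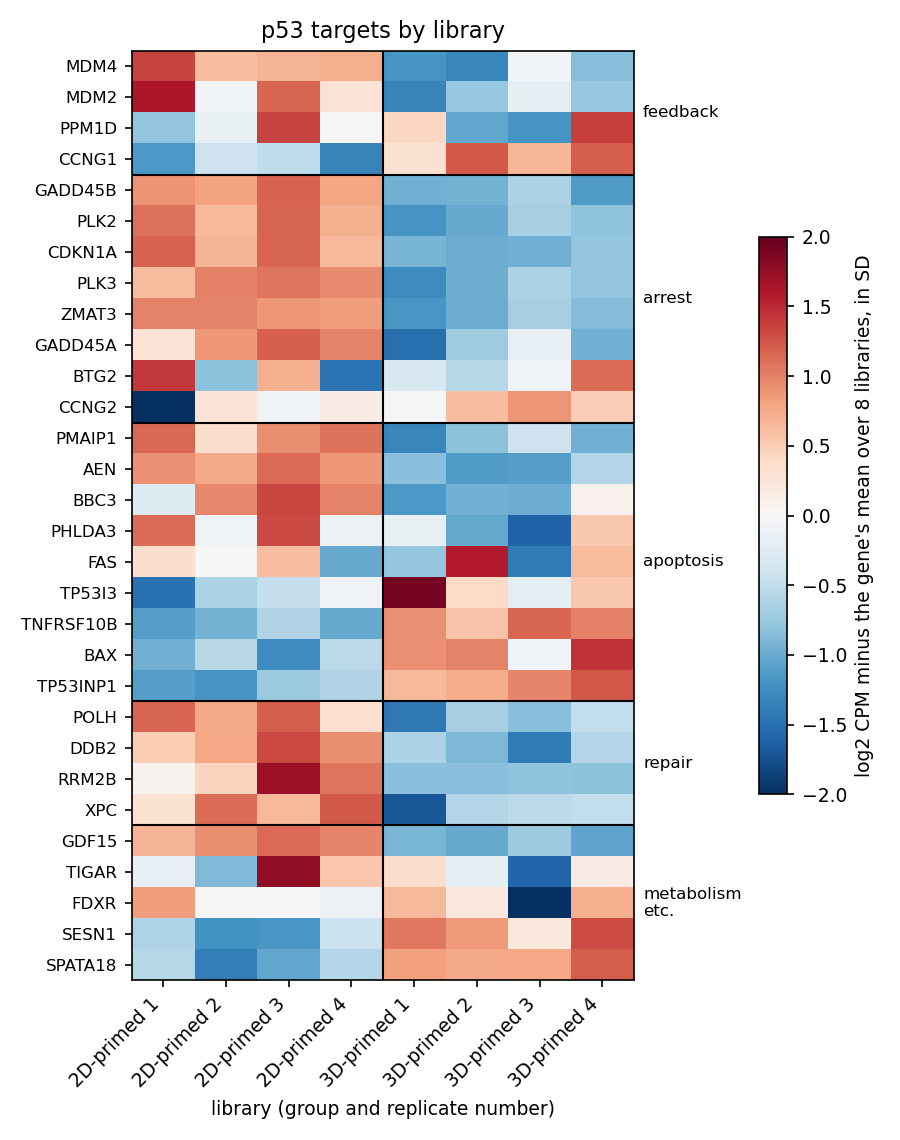
Level of the 30 tested p53 targets in each of the 8 libraries, as log2 CPM minus the gene's mean in units of its SD over the libraries; rows are grouped by role and ordered by log2 fold change. The rows from GADD45B to GADD45A and the 4 repair genes are high in all 2D-primed libraries and low in all 3D-primed libraries, whereas BTG2, FAS, PPM1D and FDXR vary within the groups.

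Across libraries, the mean log2 CPM of the 8 arrest genes was 5.08 to 5.27 in 2D-primed and 4.23 to 4.46 in 3D-primed libraries, and that of the 4 repair genes was 4.87 to 5.01 and 4.43 to 4.56. The mean of the 9 death genes overlapped between the groups, at 4.53 to 4.61 and 4.53 to 4.67. In the arrest genes 2D-primed replicate 3 was the highest and 3D-primed replicate 1 the lowest library.

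The pathway around these targets was read from 3 further lists. Of 20 relatives and regulators of p53, 19 were tested, and 9 were higher (47.4%, against 32.4% of all genes) and 5 lower (26.3%, against 31.6%) in 3D-primed cells, with changes of at most 0.84 on the log2 scale and a median of 0.07. CREBBP, an acetyltransferase and coactivator of p53, fell from 147 ± 6.27 to 82.2 ± 5.92 CPM (SD, n = 4; log2 ratio -0.84, adjusted p = 6.9e-07), and its paralog EP300 from 134 ± 5.96 to 108 ± 7.69 CPM (-0.31, adjusted p = 6.9e-04). RPL5 and NPM1, whose proteins can bind MDM2 when ribosome assembly is disturbed, rose by 0.41 and 0.32 (adjusted p = 3.6e-06 and 1.6e-05). The count of 9 depended on single libraries: it was 5 without 2D-primed replicate 1 and 4 without 3D-primed replicate 2.

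A list of 39 other p53 targets gave 36 tested genes, of which 12 were lower in 3D-primed cells (33.3%, against 31.6% of all genes) and 9 were higher (25%, against 32.4%). The 4 with the smallest p were SESN2, EPHA2, PERP and DUSP5. SESN2, which encodes sestrin 2 and is also on the ATF4 list, rose from 24.9 ± 1.05 to 50.0 ± 2.35 CPM (SD, n = 4; log2 ratio 1.00, adjusted p = 9.5e-08), in the same direction as SESN1. EPHA2, a receptor tyrosine kinase, and PERP, a membrane protein of desmosomes, fell by 1.19 and 1.17 on the log2 scale (adjusted p = 1.6e-07 and 6.6e-07). DUSP5, a nuclear phosphatase that acts on ERK, fell from 19.1 ± 3.55 to 3.67 ± 1.42 CPM (log2 ratio -2.37, adjusted p = 1.1e-05).

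Genes that p53 lowers indirectly, when p21 lets the DREAM repressor complex form on cell-cycle promoters, made up the third list. Of 27 tested, 16 were lower in 3D-primed cells (59.3%, against 31.6% of all genes) and 4 were higher (14.8%, against 32.4%), with a median log2 fold change of -0.23. ECT2, a regulator of cytokinesis, fell most, from 109 ± 7.85 to 36.2 ± 1.03 CPM (SD, n = 4; log2 ratio -1.59, adjusted p = 2.0e-08). The next smallest p were those of NEK2 (-0.92), CDC20 (-0.49) and CENPF (-0.55), which act in centrosome separation, mitotic exit and kinetochores, with adjusted p from 1.5e-06 to 9.2e-06. CDKN1A and most of these cell-cycle genes were thus lower in the same libraries.

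**Figure D5:**
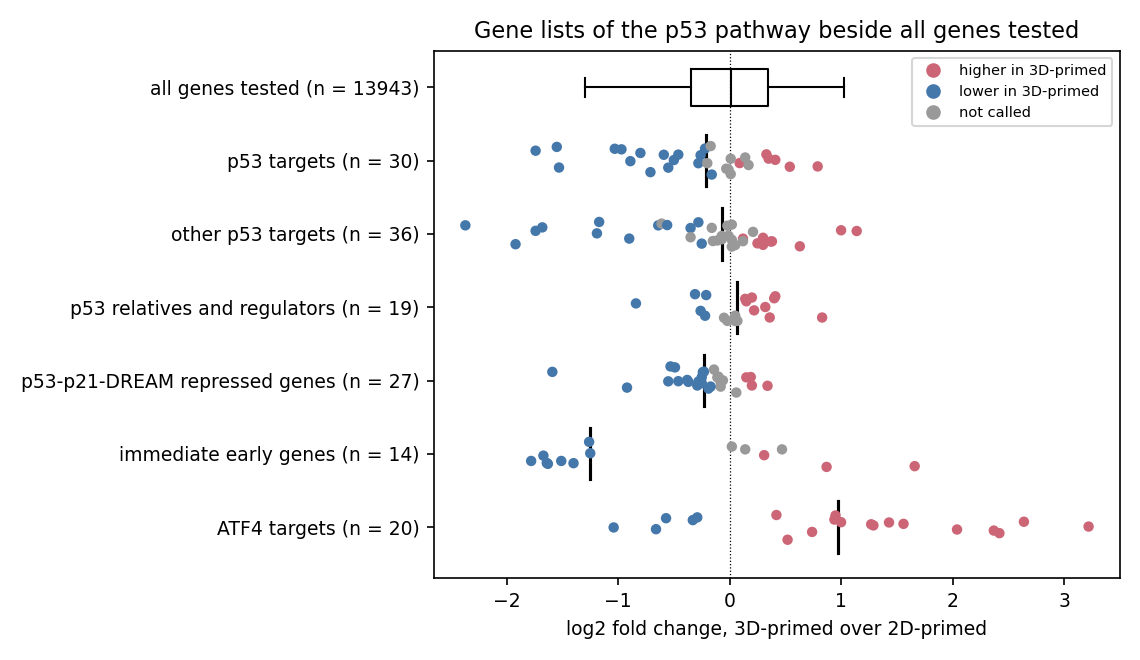
Log2 fold change, 3D-primed over 2D-primed, of each tested gene in 6 lists (points; the black line is the list's median), beside all 13943 genes tested (box, quartiles; whiskers, 5th to 95th percentile). The median lies at -0.21 for the p53 targets, -1.26 for the immediate early genes and 0.98 for the ATF4 targets.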

How the data were processed

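RNA of 4 2D-primed and 4 3D-primed HepG2 cultures was sequenced from a directional, poly(A)-selected kit. The authors deposited estimated counts per gene, made with Salmon on the GRCh38 cDNA set of Ensembl and summed with tximport, as whole numbers not scaled to depth. The tximport length setting and the use of strand are not given in the sources used here. Symbols and positions came from GENCODE 44, and 34977 of 38032 identifiers matched. Genes with 10 or more counts in at least 2 libraries were compared with glmQLFit and glmQLFTest of edgeR 4.0.16 after TMM scaling (R 4.3.3), without covariates. SE is the log2 fold change divided by the root of F. The methods of the study used DESeq2, run here (1.42.0) as an alternative, as was limma 3.58.1 with voom. The procedure was tested on simulated counts with known changes. There edgeR recovered 81.8% of changes of 1 and 72.7% of changes of 0.5 on the log2 scale. Of the calls, 5.56% were false with edgeR, 14.2% with DESeq2 and 3.82% with voom. Levels per kilobase use the canonical transcript. Of the 31 targets, 12 share exon sequence with an antisense gene and 5 with a gene on the same strand. Values in every library are given for called targets with an absolute log2 fold change of at least 0.58, and for MDM2 and CDKN1A; 4 genes with the smallest p are named from each other list. The targets, lists and roles were chosen with earlier results of these data known. Alternatives comprised tool, scaling, low-count filter, each library left out and the replicate number as a block. Some genes of the pathway are not reported here and were left out of the lists.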

Additional observations from a re-analysis of the deposited data

Results flagged for a closer look

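In each group of 4 libraries, the highest or lowest value of the 30 targets was checked for a gap to its neighbour that exceeded Dixon's 95% critical share of the group's range. Of 60 groups, 6 had such a library, where chance gives about 1 in 20. Of these, 3 were 2D-primed replicate 1: MDM4 was high at 23.8 CPM (others 18.6 to 19.3), CCNG2 low at 17.3 CPM (others 21.9 to 22.7) and FDXR high at 39.5 CPM (others 36.7 to 37.1). Without this library the log2 fold change of MDM4 was -0.71 and stayed past the threshold (adjusted p = 0.0012 in edgeR). A further 2 were 3D-primed replicate 4: BBC3 was high at 19.5 CPM (others 16.7 to 17.1) and SPATA18 high at 10.8 CPM (others 9.79 to 9.92). In XPC, 3D-primed replicate 1 was low at 30.5 CPM (others 32.8 to 33.0).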

How the results depend on the processing

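Of 510 values of the 30 targets under 17 alternatives, 479 kept their direction and their side of the threshold, and 23 of the 30 genes did so throughout. The counts of targets ran from 5 to 7 (higher) and from 16 to 17 (lower) over the fits that left out a library, with 8357 to 8875 genes called in all, and DESeq2 gave 6, 16 and 8413. Without 1 library, 4 to 8 regulators and 1 to 4 DREAM-repressed genes were higher, against 9 and 4; the latter was 2 without 2D-primed replicate 3 and 1 without 3D-primed replicate 2. The sign turned only in genes that were not called. PPM1D turned with total counts (0.01), with upper quartile (0.04) and between -0.05 and 0.04 over all settings. BTG2 turned with DESeq2 (-0.00), median-of-ratios (-0.00) and filterByExpr (-0.00), and without a library it lay between -0.07 and 0.08. FAS turned with DESeq2 (-0.01), limma-voom (-0.01), median-of-ratios (-0.00), filterByExpr (-0.00) and 10 counts in all 8 libraries (-0.00), and without a library lay between -0.08 and 0.06. FDXR turned with upper quartile (0.02) and reached 0.03 without 3D-primed replicate 3. The cause was not tested. Replicate numbers were shared by the groups, but deviations of same-numbered libraries correlated by only -0.0433 to 0.0574 and 1 of 4 libraries matched its own number best. With the replicate block 8490 genes were called, 5 targets higher and 16 lower. Among the 30 targets, TIGAR and PMAIP1 had the largest SE (0.177 and 0.145). PMAIP1 had the fewest counts (37 to 59 per library), so that counting error weighs most on its level.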

Other observations

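The TRAIL receptors were read together after their values were seen. TNFRSF10B, which signals death, rose in 3D-primed cells by 0.33 on the log2 scale, whereas TNFRSF10A, the other signalling receptor, fell from 13.9 ± 1.23 to 10.9 ± 0.757 CPM (SD, n = 4; log2 ratio -0.35, edgeR adjusted p = 0.0031). The decoy receptors TNFRSF10C (2.53 ± 0.306 and 2.28 ± 0.351 CPM, edgeR adjusted p = 0.44) and TNFRSF10D (99.95 ± 8.30 and 92.6 ± 10.1 CPM, adjusted p = 0.26) did not pass the test. Reads may have been divided between these closely related paralogs, so each value is uncertain. TP73, a relative of p53, was scarce and rose from 2.03 to 3.63 CPM under 3D priming (log2 ratio 0.83, edgeR adjusted p = 9.5e-04), also chosen after its value was seen, and TP63 was counted 0 or 1 times per library.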
